A study of Homo sapiens with 20 samples.

Results

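Untreated HER2-amplified breast cancer cells were compared with untreated melanoma cells by RNA sequencing. The 8 libraries described here, of 20 in the series, are 2 of SKBR3 and 2 of AU565, both established human breast adenocarcinoma lines, and 2 of A375 and 2 of SKMEL28, both established human melanoma lines. They were chosen as every untreated library of these 4 lines. A gene's difference is the mean of the 2 breast lines minus the mean of the 2 melanoma lines on the log2 scale, each line with equal weight. SKBR3 and AU565 are known to come from the same patient, so they are not independent breast cancers, and A375 and SKMEL28 both carry activating mutations of the kinase BRAF. No time is given for the untreated cultures. Per the labels, SKBR3 was grown in RPMI medium, AU565 in RPMI with added pyruvate and bicarbonate, A375 in DMEM and SKMEL28 in MEM, so no medium was shared between the lineages. Lineage and medium therefore cannot be told apart. The other libraries of the series are the same 4 lines after 72 h with torkinib (PP242), an inhibitor of the MTOR kinase, and the liposarcoma line 94T778 without and with it.

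Luminal breast cells line the milk ducts and are held together by keratin filaments, tight junctions and cell adhesion proteins under the control of transcription factors such as GATA3, FOXA1, ELF3 and the grainyhead factors. In HER2-amplified tumours extra copies of a stretch of chromosome arm 17q raise the receptor tyrosine kinase ERBB2 and its neighbours. Melanocytes are pigment cells that arise from the neural crest, and SOX10, PAX3 and MITF control their pigment genes. Melanoma lines vary in how much of that pigment program they keep and in how many mesenchymal genes they express, and mutant BRAF drives the MAPK pathway, whose output includes the phosphatase DUSP6, the SPRY and SPRED inhibitors and the ETV transcription factors.

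The 8 libraries held 5201967 to 9737903 reads counted in genes, and 17815 to 20455 genes had a count. Mitochondrially encoded genes took 4.11 to 7.63% of counts in the breast libraries and 3.17 to 6.58% in the melanoma libraries. The labels fitted the markers for the most part. The 9 luminal markers (KRT8, KRT18, KRT19, EPCAM, CDH1, GATA3, FOXA1, ERBB2 and SPDEF) summed to 18100 to 25650 normalised CPM (counts scaled for library size and composition, written CPM below) in the breast libraries and to 64.9 to 410.1 CPM in the melanoma libraries. Of the 9, 8 had a count in each breast library. The exception was the luminal cadherin CDH1, which had no count in the 4 breast libraries. The 9 melanocyte markers summed to 9.32 to 43.9 CPM in the breast libraries, to 596 and 653 CPM in A375 and to 8295 and 8138 CPM in SKMEL28. In A375, SOX10, PAX3 and MITF were present while PMEL, TYR, TYRP1, DCT, MLANA and GPR143 had 0 to 6.32 CPM. Markers of basal breast, blood, endothelial and fibroblast cells summed to at most 30.2 CPM in each library. Of 5 blood and endothelial genes tested, 1 was higher in each breast line than in each melanoma line (20%, beside 20.3% of all genes). This was CDH5, at 16.3 to 26.9 CPM against 0 to 0.119 CPM. KDR and LYZ were lower (40% of the 5, beside 20.8% of all genes), without a count in the breast libraries against 0.358 to 5.01 CPM.

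A pair of libraries stood apart from their partners. A375 library 1 had 635 CPM of the matrix gene FN1 and 223 CPM of MDM2, against 59.0 and 106 CPM in A375 library 2. Both genes are very high in 94T778. Of 12 genes of the 12q stretch amplified in liposarcoma, OS9 was higher and HMGA2 lower in the breast lines in all 4 pairs. These shares of 8.33% each way compare with 20.3 and 20.8% of all genes. SKBR3 library 2 had 23.7 CPM of PMEL, 14.8 CPM of VIM and 4.83 CPM of MLANA, against 7.53, 3.67 and 1.29 CPM in SKBR3 library 1, and its 9 melanocyte markers summed to 43.9 CPM against 13.0 CPM. The SKBR3 libraries also differed most, with a chi-square per gene of 11.1, against 2.10 to 2.49 in the other 3 lines. That value does not say which of the 2 departs. SKBR3 library 1 had 7.63% mitochondrial counts against 4.44% in library 2, and 4.66 and 4.11% in AU565. Its 10 most counted genes took 10.4% of counts, against 7.84% in library 2. Every count of list members below was therefore also taken without A375 library 1 and SKBR3 library 2, the 2 libraries said below to have stood apart. Whether reads were carried over between libraries was not tested. The labels do not say whether the 2 libraries of a line came from separate cultures. The spread behind each p-value was estimated between the libraries of a group over all 20 libraries of the series and may be technical.

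Most of the transcriptome differed between the lineages, and a large part of it did so in every pairing of lines. Of 16698 genes tested, 13253 (79.4%) differed on the mean of lines. Of all genes tested, 6319 (37.8%) were higher and 6934 (41.5%) were lower in the breast lines (quasi-likelihood test of edgeR, p adjusted by Benjamini-Hochberg over all genes and under 0.05, the threshold used throughout). SKBR3 differed from A375 in 12900 genes (77.3%) and from SKMEL28 in 12676 (75.9%), and AU565 from A375 in 12739 (76.3%) and from SKMEL28 in 12595 (75.4%). Within a lineage SKBR3 differed from AU565 in 8556 genes (51.2%) and SKMEL28 from A375 in 11463 (68.6%). A gene is called apart below where it passed the test in the same direction in all 4 breast-by-melanoma pairs. Apart were 6872 of the genes tested (41.2%), with 3397 (20.3% of those tested) higher and 3475 (20.8%) lower in the breast lines. With at least a 2-fold difference in each pair these were 1981 (11.9%) higher and 2217 (13.3%) lower, and 462 and 546 genes differed at least 32-fold in each pair. All 4 breast libraries lay above all 4 melanoma libraries in 3926 genes (23.5%) and below them in 4181 (25%), 8107 genes in all (48.6%). A call on the mean did not make a gene apart, and 1750 genes called higher and 1828 called lower on the mean had pairs that differed in sign. C14orf149 was the last gene inside the threshold (largest adjusted p of its pairs 0.04967) and NOP56 the first outside it (0.05003).

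These counts rest on libraries as replicates. With the line as the unit, 2 lines against 2, edgeR called 976 genes higher and 1068 lower among 14854 tested (13.8%), and 2007 (29.2%) of the 6872 genes apart were among them. The spread (biological coefficient of variation) was 0.569 between the lines of a lineage and 0.0547 between the libraries of a group. As SKBR3 and AU565 come from the same patient, this fit counts 1 breast patient as 2 units. Its spread may understate that between breast cancers. For a single gene an exact permutation test of 2 lines against 2 cannot go below a two-sided p of 0.333. The median difference over all genes tested was -0.10 on the log2 scale, and -0.24 when library totals without composition factors were used, which is the scale against which the medians of gene lists are to be read.

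**Figure D1:**
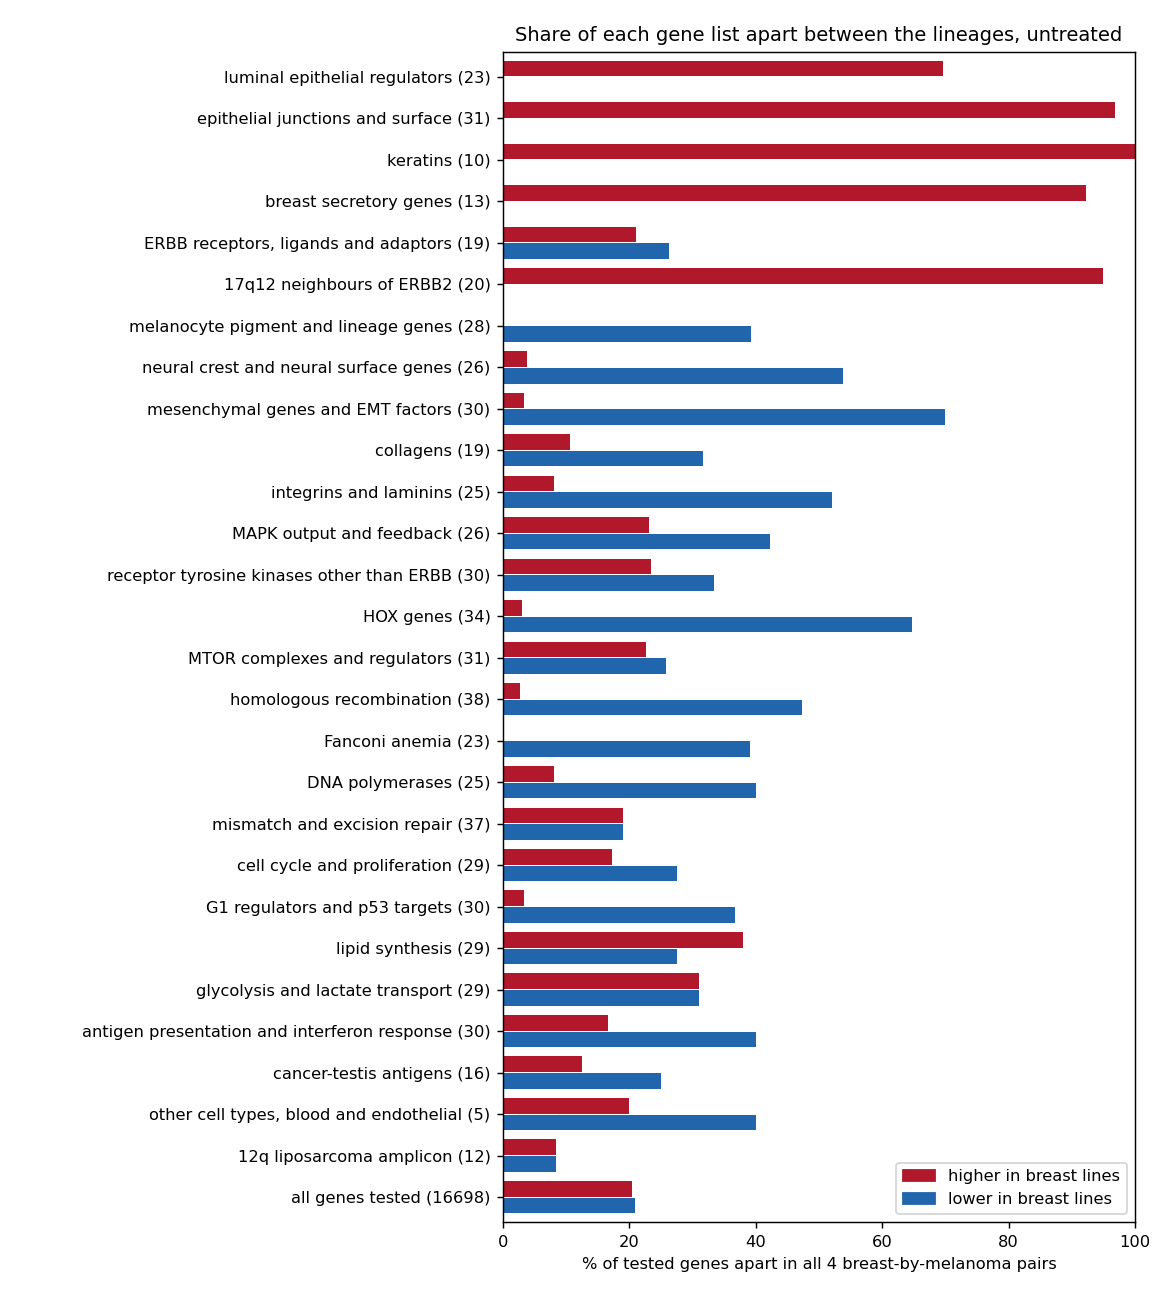
Share of the tested members of each of 27 gene lists that were apart in all 4 breast-by-melanoma pairs, in percent, higher in the breast lines (red, upper bar) or lower in them (blue, lower bar); the number in brackets is the number of members tested and the last row gives all genes tested. Epithelial lists and the ERBB2 neighbours lie far to the red side of the 20.3% of all genes, and HOX, mesenchymal, neural crest, integrin and homologous recombination genes to the blue side of 20.8%.

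Epithelial genes were mostly far higher in the breast lines. All 10 keratins tested, 30 of 31 genes of epithelial junctions and surface, 12 of 13 breast secretory genes and 16 of 23 luminal regulators were apart and higher in the breast lines and none was apart and lower. Of all genes 20.3% were apart and higher. Their median log2 differences were 7.005 for the keratins, 8.48 for the junction genes, 9.05 for the secretory genes and 3.75 for the luminal regulators. They were 6.35, 7.30, 8.28 and 3.75 when lines with no count were set to a floor of 3 counts over their 2 libraries. Leaving out any 1 of the 8 libraries, or both libraries that stood apart, left the keratin, junction and luminal counts as they were and took at most 1 gene from the secretory count. In cultured lines a level is per unit of RNA, so that fewer cells expressing a gene and less RNA per cell cannot be told apart.

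Simple-epithelium keratins were among the genes with the widest gaps. KRT19, a type I keratin of ducts, had 4736 and 4258 CPM in SKBR3 and 2399 and 2514 CPM in AU565, against 0.527 and 0.358 CPM in A375 and 0 and 0.597 CPM in SKMEL28. The log2 difference was 12.95 ± 0.17 (SE; adjusted p = 1.79e-38, edgeR). KRT7 had 4777, 4180, 2391 and 2448 CPM in the breast libraries, against 5.40 and 5.01 CPM in A375 and 1.95 and 0.358 CPM in SKMEL28 (10.5 ± 0.13). KRT8, the type II partner of KRT18, had 7331, 6773, 3061 and 3258 CPM, against 15.8 and 23.4 CPM in A375 and 1.95 and 0.716 CPM in SKMEL28 (9.92 ± 0.13). The groups were far apart for each, SKBR3 lying above AU565, and of KRT18 A375 had 307 and 315 CPM against 15.2 and 13.1 CPM in SKMEL28. KRT23, the fourth keratin by its smallest pairwise difference, had 21.8 to 23.7 CPM in the breast libraries against 0 to 0.391 CPM in the melanoma libraries (6.67 ± 0.25). Keratin genes have close relatives, and reads that aligned at more than 1 place were not counted.

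**Figure D2:**
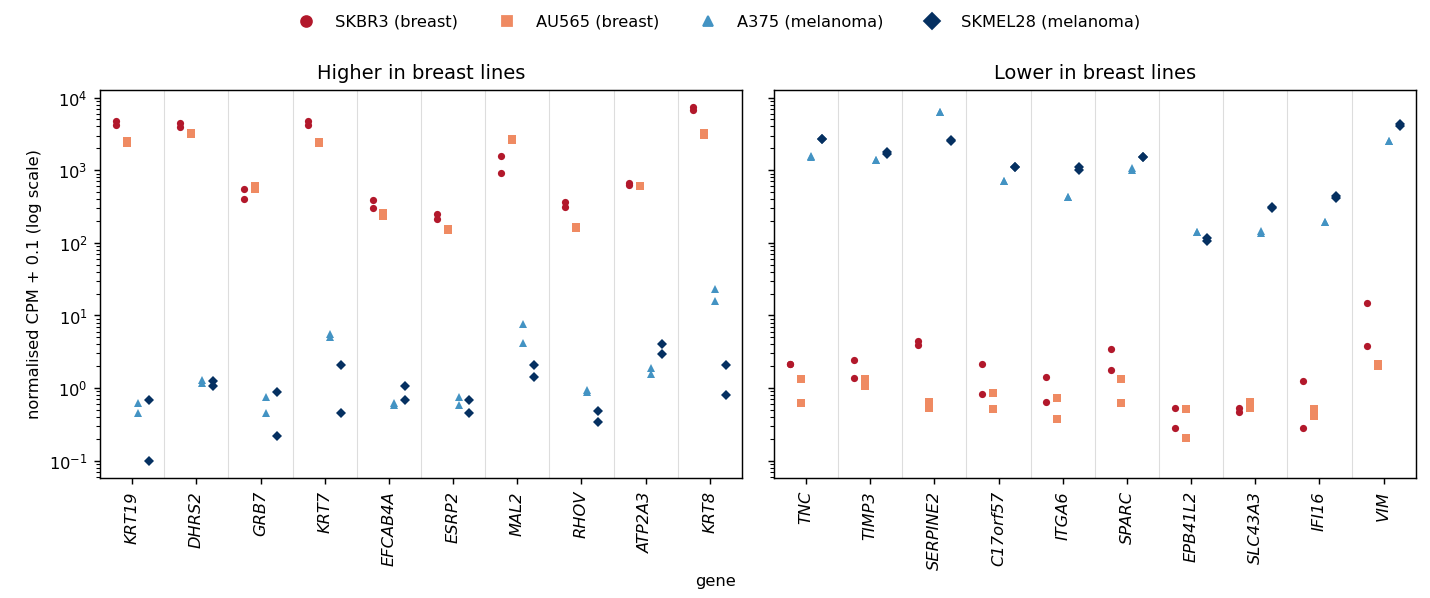
Normalised CPM plus 0.1 on a log axis for the 10 protein-coding genes higher (left) and the 10 lower (right) in the breast lines with the largest smallest-of-4 pairwise difference, among genes with more than 3 counts in each line and at least 10 CPM in each line of the higher lineage; each point is 1 of the 8 untreated libraries. In each of the 20 genes the breast and melanoma libraries are separated by a gap with no overlap, and SKBR3 library 2 is the highest breast library for VIM at 14.8 CPM.

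Other genes with the widest gaps were enzymes, transporters and regulators of epithelium. DHRS2, a mitochondrial short-chain dehydrogenase, had 4434, 3993, 3134 and 3234 CPM in the breast libraries against 0.955 to 1.19 CPM in the melanoma libraries (11.70 ± 0.11). MAL2, which carries proteins to the apical membrane, had 930 and 1559 CPM in SKBR3 and 2628 and 2659 CPM in AU565, against 1.31 to 7.64 CPM in the melanoma libraries (9.23). ESRP2, a splicing factor that sets epithelial exon choice, had 150.2 to 247 CPM against 0.358 to 0.659 CPM (8.49). EFCAB4A, RHOV (a small GTPase) and ATP2A3 (a calcium pump of the endoplasmic reticulum) completed the set, at 232 to 394, 159 to 369 and 609 to 667 CPM in the breast libraries against at most 0.976, 0.835 and 3.91 CPM in the melanoma libraries. ESRP2's relative ESRP1 was not apart, because SKMEL28 had 43.5 and 41.4 CPM of it, within the breast range of 27.5 to 55.2 CPM.

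Several genes high in both breast lines had 0 to 3 counts over the 4 melanoma libraries together, where a fitted fold change has little meaning. VGLL1, a cofactor of TEAD transcription factors, had 263, 242, 226 and 237 CPM in the breast libraries and no count in the melanoma libraries, at least a 1184-fold difference. C2orf54 was likewise without a count in melanoma, at least 706-fold higher in the breast lines, with 119 to 178 CPM in the breast libraries. S100A9, a calcium-binding protein best known from neutrophils, had 519, 514, 841 and 875 CPM in the breast libraries and 2 counts in the melanoma libraries together. The luminal factor SPDEF had 9385 counts in the breast libraries against 1 in the melanoma libraries (ratio 9545, exact 95% binomial interval 1713 to 3.77e+05, counting error only, as for all such intervals). BCAS1, the inhibin subunit INHBB, the immune checkpoint ligand VTCN1 and the recycling-endosome GTPase RAB25 had 1 to 3 counts in the melanoma libraries and 149 to 556 CPM in the breast libraries. These 8 genes lead the 333 genes apart and higher in the breast lines that had at most 3 counts in the other lineage.

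Among luminal regulators, FOXA1, which opens chromatin for steroid receptors, had 259, 280, 282 and 292 CPM in the breast libraries, against 1.84 and 1.55 CPM in A375 and no count in SKMEL28, at least a 453-fold difference. GRHL2, a grainyhead factor of epithelial junctions, had 37.5 to 49.8 CPM in the breast libraries and no count in the melanoma libraries (at least 212-fold). ELF3, an epithelial ETS factor, had 353 to 508 CPM against 0.119 to 0.527 CPM (10.46 ± 0.14). OVOL1, a repressor of mesenchymal genes, had 1060 counts against 1. The lineages were thus separated without overlap for each of these 4 factors. GATA3 lay closer, with 45.0 and 47.0 CPM in SKBR3 and 8.29 and 7.67 CPM in AU565, against 4.08 and 2.50 CPM in A375 and 0.195 and 0 CPM in SKMEL28. XBP1, a secretory-pathway factor that other cells also use, had 1215 to 1353 CPM against 115 to 195 CPM (3.06 ± 0.05). TFAP2A and KLF5 were not apart, because 1 melanoma line had more of each than 1 or both breast lines. SKMEL28 had 148 and 148 CPM of TFAP2A, against 112 and 116 CPM in SKBR3 and 32.6 and 32.2 CPM in AU565. A375 had 90.4 and 95.6 CPM of KLF5, against 57.6 and 54.0 CPM in AU565. The oestrogen receptor ESR1 stayed at or under 3.46 CPM in the 8 libraries.

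Several junction and surface genes had few or no counts in the melanoma libraries. CLDN3, a tight junction claudin, had 145, 131, 107 and 98.1 CPM in the breast libraries and no count in the melanoma libraries (at least 581-fold). The adhesion molecule EPCAM had 219 to 266 CPM against 0.119 to 0.391 CPM (10.12 ± 0.17). The membrane proteases ST14 (matriptase) and PRSS8 (prostasin), which act in 1 cascade, had 312 to 333 and 270 to 368 CPM in the breast libraries, against at most 0.264 CPM of either in the melanoma libraries. JUP, the plakoglobin of desmosomes and adherens junctions, had 705 to 1264 CPM against 1.79 to 9.18 CPM (7.75 ± 0.10). The desmosomal cadherin DSG2 was the exception among the 31, with 53.4 to 136 CPM in the breast libraries and 88.2 to 191 CPM in the melanoma libraries.

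Some of these genes carry, close to their start, letters that the ZEB and SNAI repressors are known to bind, and 3 promoters are shown because their genes were apart and hold that motif. The windows are the 250 bases before the start from RefSeq (GRCh38.p14, a later build than the hg19 of the files, so no position is shared with the counts), 5′ to 3′ on the gene's strand, with CACCTG or its other-strand form CAGGTG in capitals. CRB3, of the Crumbs polarity complex, lies at chr19:6464021-6464270 on the plus strand (5 matches), AP1M2, an epithelial clathrin adaptor subunit, at chr19:10587313-10587562 on the minus strand (3) and RAB25 at chr1:156060910-156061159 on the plus strand (1).
CRB3: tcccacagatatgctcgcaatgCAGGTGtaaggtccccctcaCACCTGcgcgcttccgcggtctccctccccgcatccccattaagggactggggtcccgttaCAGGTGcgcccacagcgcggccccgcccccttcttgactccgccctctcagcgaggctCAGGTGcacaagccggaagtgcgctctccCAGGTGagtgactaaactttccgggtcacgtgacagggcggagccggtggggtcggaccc
AP1M2: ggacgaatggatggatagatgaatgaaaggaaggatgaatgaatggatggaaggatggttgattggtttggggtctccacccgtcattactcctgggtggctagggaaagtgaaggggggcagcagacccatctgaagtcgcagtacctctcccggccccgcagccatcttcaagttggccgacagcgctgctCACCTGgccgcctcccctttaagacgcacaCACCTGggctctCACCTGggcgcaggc
RAB25: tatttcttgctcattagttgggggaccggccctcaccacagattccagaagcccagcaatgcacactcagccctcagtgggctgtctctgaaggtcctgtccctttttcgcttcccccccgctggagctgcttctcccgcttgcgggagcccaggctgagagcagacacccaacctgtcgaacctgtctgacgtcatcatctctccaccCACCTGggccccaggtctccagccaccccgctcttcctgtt
CRB3 had 13.2, 12.3, 9.98 and 9.87 CPM in the breast libraries and no count in the melanoma libraries (at least 55.1-fold). AP1M2 had 88.2 to 126 CPM in the breast libraries, against 4.08 and 3.70 CPM in A375 and none in SKMEL28. The motif stood in 8 of the 17 junction gene promoters with an entry (47.1%), in 7 of the 16 of those that were apart (43.8%), in 2 of 15 luminal regulator promoters (13.3%) and in 4781 of 27305 promoters in the table (17.5%). These 3 were picked after the matches were seen, and a match is a description of the letters, not of binding.

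Secretory genes of breast epithelium followed. S100A14 had 867 to 1357 CPM in the breast libraries against 0 to 0.835 CPM in the melanoma libraries (11.66 ± 0.16). AGR2, a disulfide isomerase of mucin-secreting cells, had 104 and 118 CPM in SKBR3 and 772 and 801 CPM in AU565, against 2 counts in the melanoma libraries together (ratio 7367, interval 2039 to 6.08e+04). SCGB2A2, the mammaglobin, had 59.0 to 96.6 CPM against 1 count, and the prolactin receptor PRLR 56.7 to 119 CPM against 2 counts. AGR2, SCGB2A2 and PRLR thus had lower levels in SKBR3 than in AU565, and S100A14 had higher ones. The exception in the list was ANKRD30A (NY-BR-1), which had no count in the breast lines or SKMEL28 and 15.9 and 13.5 CPM in A375.

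ERBB2 itself had 7411 and 7627 CPM in SKBR3 and 9842 and 9390 CPM in AU565, against 69.4 and 67.1 CPM in A375 and 50.0 and 50.2 CPM in SKMEL28, a log2 difference of 7.18 ± 0.08 (adjusted p = 1.61e-40, edgeR). Of the 20 tested genes in the list of its 17q12 neighbourhood, ERBB2 included, 19 were apart and higher (20.3% of all genes were) and none was apart and lower, with a median log2 difference of 3.345. GRB7, an adaptor protein encoded beside ERBB2, had 553, 402, 598 and 553 CPM in the breast libraries against 0.119 to 0.781 CPM in the melanoma libraries (10.19 ± 0.18). GSDMB, a gasdermin, had 409 to 730 CPM against 2.93 to 8.17 CPM (6.76 ± 0.09). TCAP, the titin cap protein, had 7.54 to 15.8 CPM against 0.119 to 0.596 CPM (5.49 ± 0.31). Genes of the stretch that most cells use differed less: the proteasome subunit PSMD3 had 972 to 998 CPM against 128 to 147 CPM (2.87 ± 0.06). The lipid transporter STARD3 had 425 to 535 CPM against 39.1 to 43.5 CPM (3.48 ± 0.06). The kinase CDK12 had 773 and 1030 CPM in SKBR3 and 1708 and 1601 CPM in AU565, against 116 to 131 CPM (3.27 ± 0.07). All 4 breast libraries were thus above all 4 melanoma libraries for each of these neighbours. TOP2A was the tested neighbour that was not apart, with 409 to 772 CPM in the breast libraries and 456 to 594 CPM in the melanoma libraries. The count of 19 held without any 1 library and without both libraries that stood apart.

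The rest of the ERBB network differed in both directions, at shares near those of all genes. Of 19 receptors, ligands and adaptors tested, 4 were apart and higher, namely ERBB2, EGFR, EGF and BTC, and 5 were apart and lower, namely TGFA, NRG1, GAB2, ERBB2IP and GRB2. These shares of 21.1 and 26.3% compare with 20.3 and 20.8% of all genes, and the median log2 difference was -0.30. EGFR had 130 and 165 CPM in SKBR3 and 274 and 257 CPM in AU565, against 72.5 and 30.3 CPM in A375, whose library 1 was the higher, and 1.95 and 4.30 CPM in SKMEL28 (3.91 ± 0.16). ERBB3, the kinase-poor partner of ERBB2, had 251 to 359 CPM in the breast libraries and lay between the melanoma lines, with 607 and 605 CPM in A375 and 156 and 162 CPM in SKMEL28 (mean difference -0.03 ± 0.05, adjusted p = 0.693, edgeR). TGFA, a ligand of EGFR, had 1 count in the breast libraries together, against 532 and 531 CPM in A375 and 4.88 and 9.19 CPM in SKMEL28. NRG1, a ligand of ERBB3 and ERBB4, had 2 counts against 2.93 to 3.56 CPM. ERBB2 and EGFR were thus higher in the breast lines while those 2 ligands were higher in the melanoma lines, and EGF, at 24.2 to 62.6 CPM in the breast libraries against 0.954 to 15.3 CPM, went the other way. BTC had at most 3.22 CPM in any library and was no longer apart when both libraries that stood apart were left out.

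Of the melanocyte genes, regulators such as SOX10 and MITF were lower in the breast lines in every pair, while PMEL and the tyrosinase family were not. Among 28 tested, 11 were apart and lower (20.8% of all genes were) and none was apart and higher, with a median log2 difference of -5.28, and -4.63 with lines without a count at the floor. SOX10 had 0.367 and 2.20 CPM in SKBR3 and 0.106 and 0 CPM in AU565, against 539 and 598 CPM in A375 and 471 and 460 CPM in SKMEL28 (-10.60 ± 0.15). PAX3 had no count in the breast libraries, against 17 and 17.8 CPM in A375 and 80.4 and 80.7 CPM in SKMEL28 (at least 179-fold lower in the breast lines). MITF, the master regulator of pigment cells, had 2.02 to 6.69 CPM in the breast libraries, against 30.6 and 34.1 CPM in A375 and 502 and 539 CPM in SKMEL28 (-4.62 ± 0.12). SOX5 and the WNT-pathway factor LEF1 had 2 counts each in the breast libraries and 32.7 to 300 CPM in the melanoma libraries. Both melanoma lines thus held the regulators, in different amounts.

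Several pigment genes were high in SKMEL28 and not in A375. The melanosome fibril gene PMEL had 7.53 and 23.7 CPM in SKBR3 and 3.51 and 2.74 CPM in AU565, against 6.32 and 1.55 CPM in A375 and 4212 and 3902 CPM in SKMEL28. TYR, the tyrosinase of melanin synthesis, had 0 to 1.32 CPM in the breast libraries, against 0.395 and 0 CPM in A375 and 419 and 439 CPM in SKMEL28. The melanin enzyme DCT had 0.137 to 3.52 CPM, against 0.527 and 0.238 CPM in A375 and 1164 and 1253 CPM in SKMEL28. The melanosome antigen MLANA had 0.212 to 4.83 CPM, against 0.922 and 0.358 CPM in A375 and 927 and 927 CPM in SKMEL28. A375 overlapped the breast libraries in each of these, so that PMEL, TYR, DCT, MLANA, TYRP1 and GPR143 were not apart. GPNMB, a lysosomal glycoprotein often listed with pigment genes, had 293 and 344 CPM in SKBR3 and 132 and 145 CPM in AU565, against 128 and 126 CPM in A375 and 994 and 1051 CPM in SKMEL28.

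**Figure D3:**
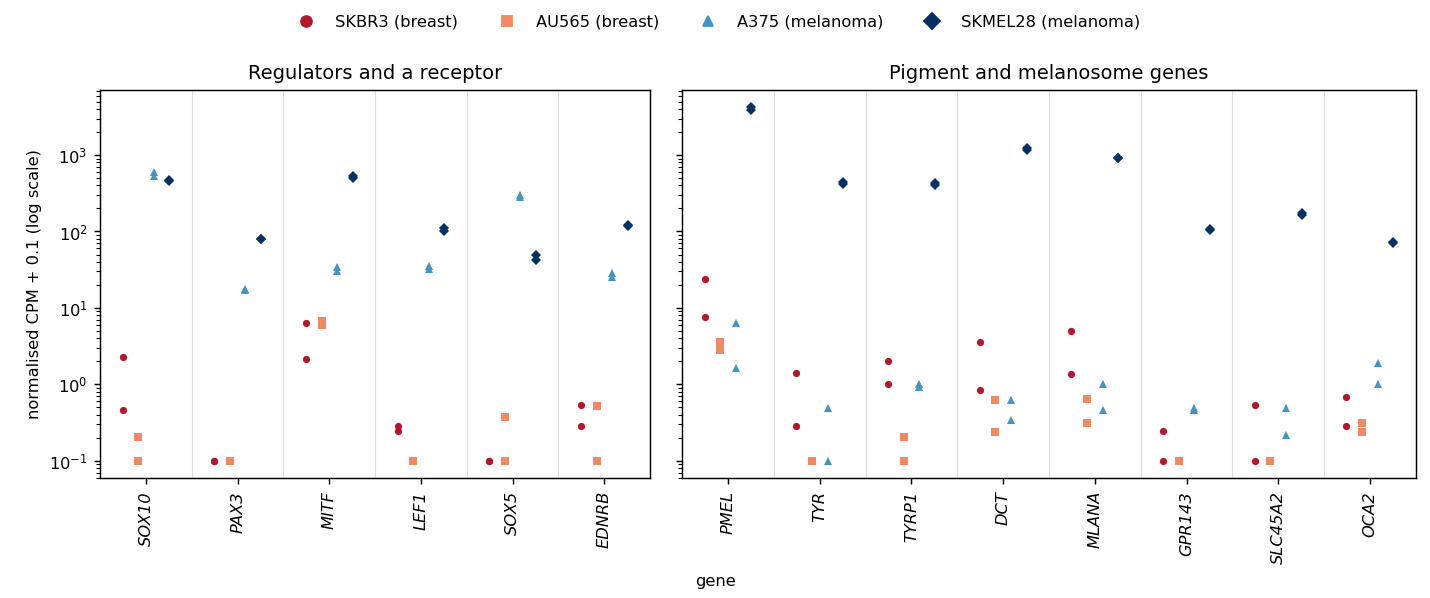
Normalised CPM plus 0.1 on a log axis of melanocyte regulators and the endothelin receptor EDNRB (left) and of pigment and melanosome genes (right); each point is 1 of the 8 untreated libraries. For the regulators both melanoma lines stand above the breast lines, while for PMEL, TYR, TYRP1, DCT and MLANA A375 lies among the breast libraries and SKMEL28 stands alone at 411 CPM or more.

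The promoters of TYR (chr11:89177625-89177874 on the plus strand) and of GPR143 (chrX:9765848-9766097 on the minus strand), a receptor of melanosomes, are shown because they hold the M-box letters that MITF is known to bind, TCATGTG or its other-strand form CACATGA, in capitals (1 and 2 matches).
TYR: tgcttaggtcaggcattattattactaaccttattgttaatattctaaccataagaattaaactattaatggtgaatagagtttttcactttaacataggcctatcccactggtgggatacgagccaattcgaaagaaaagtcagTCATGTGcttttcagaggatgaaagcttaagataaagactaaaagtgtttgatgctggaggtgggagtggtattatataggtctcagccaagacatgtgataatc
GPR143: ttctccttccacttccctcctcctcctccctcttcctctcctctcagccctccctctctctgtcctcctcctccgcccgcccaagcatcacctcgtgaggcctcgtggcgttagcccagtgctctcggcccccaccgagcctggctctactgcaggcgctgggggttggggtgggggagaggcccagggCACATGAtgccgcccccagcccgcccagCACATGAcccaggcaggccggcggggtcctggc
The windows are 250 bases before the start, from RefSeq (GRCh38.p14), and both genes were high in SKMEL28 and at or under 0.395 CPM in A375. The M-box stood in 6 of the 24 melanocyte gene promoters with an entry (25%), in 704 of all 27305 (2.58%), in 0 of the 9 of melanocyte genes that were apart in all 4 pairs, and in none of the 17 junction and 15 luminal promoters.

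Neural crest and neural surface genes were also lower in the breast lines, in 14 of 26 tested (53.8%, beside 20.8% of all genes), with 1 higher (3.85%, beside 20.3%) and a median log2 difference of -5.23 (-4.27 with lines without a count at the floor). CSPG4, the melanoma chondroitin sulfate proteoglycan, had 2.02, 2.05, 1.06 and 0.548 CPM in the breast libraries, against 1100 and 1196 CPM in A375 and 450 and 423 CPM in SKMEL28 (-9.06 ± 0.11). The nerve growth factor receptor NGFR had 1 count in the breast libraries against 27.0 to 49.0 CPM, and the crest factor FOXD3 no count against 4.06 to 10.5 CPM (at least 32.2-fold lower). CDH2, the N-cadherin, had 1 count in the breast libraries, against 148 and 150.5 CPM in A375 and 18.6 and 21.4 CPM in SKMEL28. The member that was higher in the breast lines was SOX9, a factor of crest and of many epithelia, at 11.8 to 14.4 CPM against 0 to 4.22 CPM. The counts of 14 and 1 held without each library in turn and without both that stood apart.

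Mesenchymal genes were mostly lower in the breast lines as well. Of 30 tested, 21 were apart and lower in the breast lines (70%, beside 20.8% of all genes) and 1 higher (3.33%, beside 20.3%), with a median log2 difference of -4.78; without both libraries that stood apart the counts were 19 and 1. VIM, the intermediate filament of mesenchymal cells, had 3.67 and 14.8 CPM in SKBR3 and 2.02 and 1.92 CPM in AU565, against 2525 and 2488 CPM in A375 and 4018 and 4283 CPM in SKMEL28 (-9.51). The matrix glycoprotein TNC had 0.531 to 2.05 CPM in the breast libraries against 1538 to 2698 CPM in the melanoma libraries (-10.60 ± 0.11). SPARC had 0.531 to 3.37 CPM against 1015 to 1532 CPM (-9.71 ± 0.12). The breast libraries therefore held little of any of the 3, and SKBR3 library 2, the highest of them for VIM and SPARC, was still far under the melanoma libraries. Among the factors of epithelial-mesenchymal transition, TWIST1 had no count in the breast libraries against 7.42 to 10.5 CPM (at least 41.0-fold lower) and ZEB2 had 0 to 0.439 CPM, against 29.4 and 32.4 CPM in A375 and 225 and 226 CPM in SKMEL28. ZEB1 and SNAI2 were high in 1 melanoma line each. ZEB1 had 78.1 and 83.9 CPM in A375 and 0 and 0.119 CPM in SKMEL28. SNAI2 had 3.16 and 1.31 CPM in A375 and 335 and 354 CPM in SKMEL28. The breast libraries had at most 0.425 CPM of ZEB1 and 1.46 CPM of SNAI2. TGFB2 was the 1 member higher in the breast lines, with 6.24 and 8.5 CPM in SKBR3 and 35.5 and 30.1 CPM in AU565, against 4.74 and 2.03 CPM in A375 and 0 and 0.119 CPM in SKMEL28.

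FN1, the fibronectin, had 85.6, 104, 90.3 and 90.3 CPM in the breast libraries, against 635 and 59.0 CPM in A375 and 17665 and 18335 CPM in SKMEL28. Its call in all 4 pairs rested on A375 library 1, without which FN1 was no longer apart, since A375 library 2 lay under the breast libraries. SNAI2 was also no longer apart without that library, nor without SKBR3 library 1. It stayed apart when both libraries that stood apart were left out together.

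Further genes with wide gaps were higher in both melanoma lines. SERPINE2, a protease inhibitor, had 3.86 and 4.39 CPM in SKBR3 and 0.425 and 0.548 CPM in AU565, against 6296 and 6383 CPM in A375 and 2530 and 2621 CPM in SKMEL28 (-11.45). TIMP3, a metalloproteinase inhibitor, had 0.956 to 2.34 CPM against 1392 to 1757 CPM (-10.07). ITGA6, the laminin-binding integrin subunit, had 0.274 to 1.32 CPM in the breast libraries against 425 to 1101 CPM in the melanoma libraries (-9.90 ± 0.12). The nuclear DNA sensor IFI16 had 0.184 to 1.17 CPM against 192 to 437 CPM. C17orf57 had 0.411 to 2.05 CPM against 706 to 1120 CPM, EPB41L2 had 0.106 to 0.439 CPM against 106 to 142 CPM, and SLC43A3, a purine base transporter, 0.367 to 0.548 CPM against 135 to 307 CPM. These 7 genes had at most 4.39 CPM in a breast library and at least 106 CPM in a melanoma library. Of the 466 genes apart and lower with at most 3 counts over the 4 breast libraries, the kinase MAP4K4 led, with 3 counts in the breast libraries against 208, 195, 206 and 213 CPM in the melanoma libraries. Summed counts were 3 against 6048 (1982-fold lower in the breast lines, interval 678 to 9615). The RNA-binding protein IGF2BP3 (118 to 146 CPM in the melanoma libraries), the integrin subunit ITGA4 (67.4 to 134 CPM), the receptor TNFRSF19, DZIP1, EYA4, SOX5 and HOXB9 came next, with 1 to 3 counts in the breast libraries.

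Integrins and laminins were lower in the breast lines in 13 of 25 (52%, beside 20.8% of all genes) and higher in 2 (8%, beside 20.3%), with a median log2 difference of -2.34. LAMA4, a laminin chain, had 0.137 to 0.879 CPM in the breast libraries, against 446 and 451 CPM in A375 and 144 and 142 CPM in SKMEL28 (-8.98 ± 0.13). The epithelial integrin ITGB6, with 37.1, 55.4, 23.8 and 25.6 CPM in the breast libraries against 3 counts in the melanoma libraries, was higher, as was the laminin chain LAMA5. Collagens were lower in 6 and higher in 2 of 19 tested, or 31.6 and 10.5% where all genes gave 20.8 and 20.3%. The basement membrane chain COL4A2 had 6.43, 4.39, 2.66 and 2.19 CPM in the breast libraries, against 685 and 708 CPM in A375 and 38.5 and 39.5 CPM in SKMEL28 (-5.51 ± 0.10), and COL4A1, COL6A2 and COL9A3 likewise had their highest levels in A375. COL1A1 and COL18A1 were higher in the breast lines, COL1A1 at 6.72 to 15.2 CPM against 0.976 to 2.50 CPM.

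HOX genes, which mark position along the body axis, were lower in the breast lines in 22 of 34 tested (64.7%, beside 20.8% of all genes), with 1 higher (2.94%, beside 20.3%). Their median log2 difference was -6.87, and -3.57 with lines without a count at the floor, as many of them had no count in the breast lines. HOXB6 had no count in the breast libraries, against 12.8 and 14.1 CPM in A375 and 20.3 and 23.7 CPM in SKMEL28 (at least 82.1-fold lower). HOXD13 had none against 12.8 to 15.0 CPM (at least 64.9-fold), HOXD8 none against 7.15 to 16.3 CPM (at least 53.2-fold), and HOXB9 1 count against 42.2 to 70.2 CPM. The breast lines thus held almost none of these transcripts, at levels that were modest in melanoma cells. HOXC13 was the member higher in the breast lines, at 20.9 to 28.6 CPM against 12.9 and 11.3 CPM in A375 and 2.34 and 2.74 CPM in SKMEL28. Without both libraries that stood apart 20 members were apart and lower.

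MAPK output genes differed in both directions. Of 26 tested, 11 (42.3%) were apart and lower and 6 (23.1%) apart and higher in the breast lines (20.8 and 20.3% of all genes were), with a median log2 difference of -0.65, and both counts held without each library and without both that stood apart. DUSP6, a phosphatase that feeds back on ERK, had 2.39, 1.17, 2.34 and 2.74 CPM in the breast libraries, against 219 and 221 CPM in A375 and 82.4 and 82.2 CPM in SKMEL28 (-6.01 ± 0.12). The ETS factor ETV5 had 0 and 2.05 CPM in SKBR3 and 0.212 and 0 CPM in AU565, against 160 and 156 CPM in A375 and 509 and 518 CPM in SKMEL28 (-9.48 ± 0.16). Its relative ETV1 had 0.184 to 1.03 CPM against 70.5 to 90.4 CPM (-7.09 ± 0.15). FOSL1, an AP-1 subunit, had 1.03 to 2.23 CPM against 153 to 287 CPM (-7.10 ± 0.11). ETV4, SPRY2, SPRY4, SPRED1, PHLDA1, EPHA4 and BRAF itself were lower as well, so the lower genes included pathway inhibitors (DUSP6, SPRY2, SPRY4, SPRED1) and 3 ETV factors. The early-response factor EGR1, by contrast, had 572, 574, 629 and 577 CPM in the breast libraries, against 103 and 116 CPM in A375 and 17 and 16.6 CPM in SKMEL28 (3.78 ± 0.08). MYC had 417 to 465 CPM, against 31.4 and 29.3 CPM in A375 and 220 and 199 CPM in SKMEL28 (2.47 ± 0.06). CCND1 and DUSP4 were not apart, with A375 within the breast range for both.

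Of 30 other receptor tyrosine kinases tested, 7 were apart and higher (23.3%, beside 20.3% of all genes) and 10 apart and lower (33.3%, beside 20.8%). EPHA3 had no count in the breast libraries, against 156 and 152 CPM in A375 and 23.4 and 26.3 CPM in SKMEL28 (at least 295-fold lower), and ROR1 and FLT1 had none against 5.01 to 18.0 and 7.28 to 9.37 CPM. IGF1R, the insulin-like growth factor receptor, had 25.2 to 35.4 CPM in the breast libraries against 170 to 350 CPM (-3.06 ± 0.07). EPHB6, DDR1, FGFR2, FGFR4, EPHA1, EPHB3 and MST1R made up the breast side: EPHB6 had 55.8 to 93.3 CPM against 0 to 0.391 CPM (8.60 ± 0.21). The collagen receptor DDR1 had 478 to 599 CPM, against 92.0 and 97.9 CPM in A375 and 0.391 and 1.31 CPM in SKMEL28 (5.79 ± 0.10).

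The MTOR pathway, the target of the drug used in the rest of the series, differed about as often as all genes. Of 31 genes tested, 7 were apart and higher and 8 apart and lower, near the 20.3 and 20.8% of all genes, with a median log2 difference of -0.03, and the counts were 5 and 7 without both libraries that stood apart and 5 and 9 with library totals. MTOR itself was not apart, at 97.2 to 121 CPM in the breast libraries, against 121 and 125 CPM in A375 and 290 and 300 CPM in SKMEL28. With library totals MTOR was apart and lower in the breast lines (-0.94). The kinase AKT1, upstream of MTOR, had 329 to 345 CPM in the breast libraries against 93.5 to 161 CPM in the melanoma libraries (1.48 ± 0.05). EIF4EBP2, a translation repressor that MTOR inactivates, had 213 and 277 CPM in SKBR3 and 394 and 405 CPM in AU565, against 74.3 to 78.7 CPM (2.03 ± 0.06). The lipid phosphatase INPP4B had 7.71 to 16.2 CPM in the breast libraries against 152 to 316 CPM (-4.33 ± 0.08). The sestrin SESN3 had 0.735 to 7.01 CPM against 15.0 to 59.1 CPM (-3.54 ± 0.15).

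Genes of homologous recombination, which repairs double-strand breaks from an intact copy, were mostly level or lower in the breast lines. Of 38 tested, 18 were apart and lower (20.8% of all genes were), 1 was apart and higher and 19 were neither, with a median log2 difference of -0.79 against -0.10 over all genes. With at least a 2-fold difference in each pair 9 of the 38 were lower, beside 13.3% of all genes, and 1 higher, beside 11.9%. Leaving out 1 library at a time gave 14 to 18 lower and 1 to 2 higher, and leaving out both that stood apart gave 18 and 1. BRCA1, which directs break ends into this pathway, had 8.45 and 12.4 CPM in SKBR3 and 20.7 and 16.3 CPM in AU565, against 101 and 97.7 CPM in A375 and 106 and 116 CPM in SKMEL28 (-2.89 ± 0.09, adjusted p = 1.10e-26, edgeR). BRCA2, which loads the recombinase onto broken ends, had 6.59 to 9.87 CPM against 29.2 to 48.2 CPM (-2.17 ± 0.11), and RAD51C, which acts in the same pathway, 4.93 to 6.005 CPM against 28.9 to 35.1 CPM (-2.54 ± 0.11). RAD54B, a translocase that moves along DNA, had 2.74 to 4.67 CPM against 23.0 to 31.1 CPM, and EME1, a subunit of a junction-cutting nuclease, 5.13 to 8.08 CPM against 24.8 to 53.3 CPM. No breast library reached a melanoma library in any of these 5 genes. The kinase ATM was lower too, at 30.5 and 33.1 CPM in SKBR3 and 55.9 and 49.9 CPM in AU565, against 113 and 102 CPM in A375 and 264 and 298 CPM in SKMEL28 (-2.08 ± 0.07). NBN, a subunit of the break sensor with MRE11A and RAD50, was the member higher in the breast lines, with 244 and 321 CPM in SKBR3 and 740 and 767 CPM in AU565, against 125 and 110 CPM in A375 and 102 and 102 CPM in SKMEL28 (2.08 ± 0.07).

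**Figure D4:**
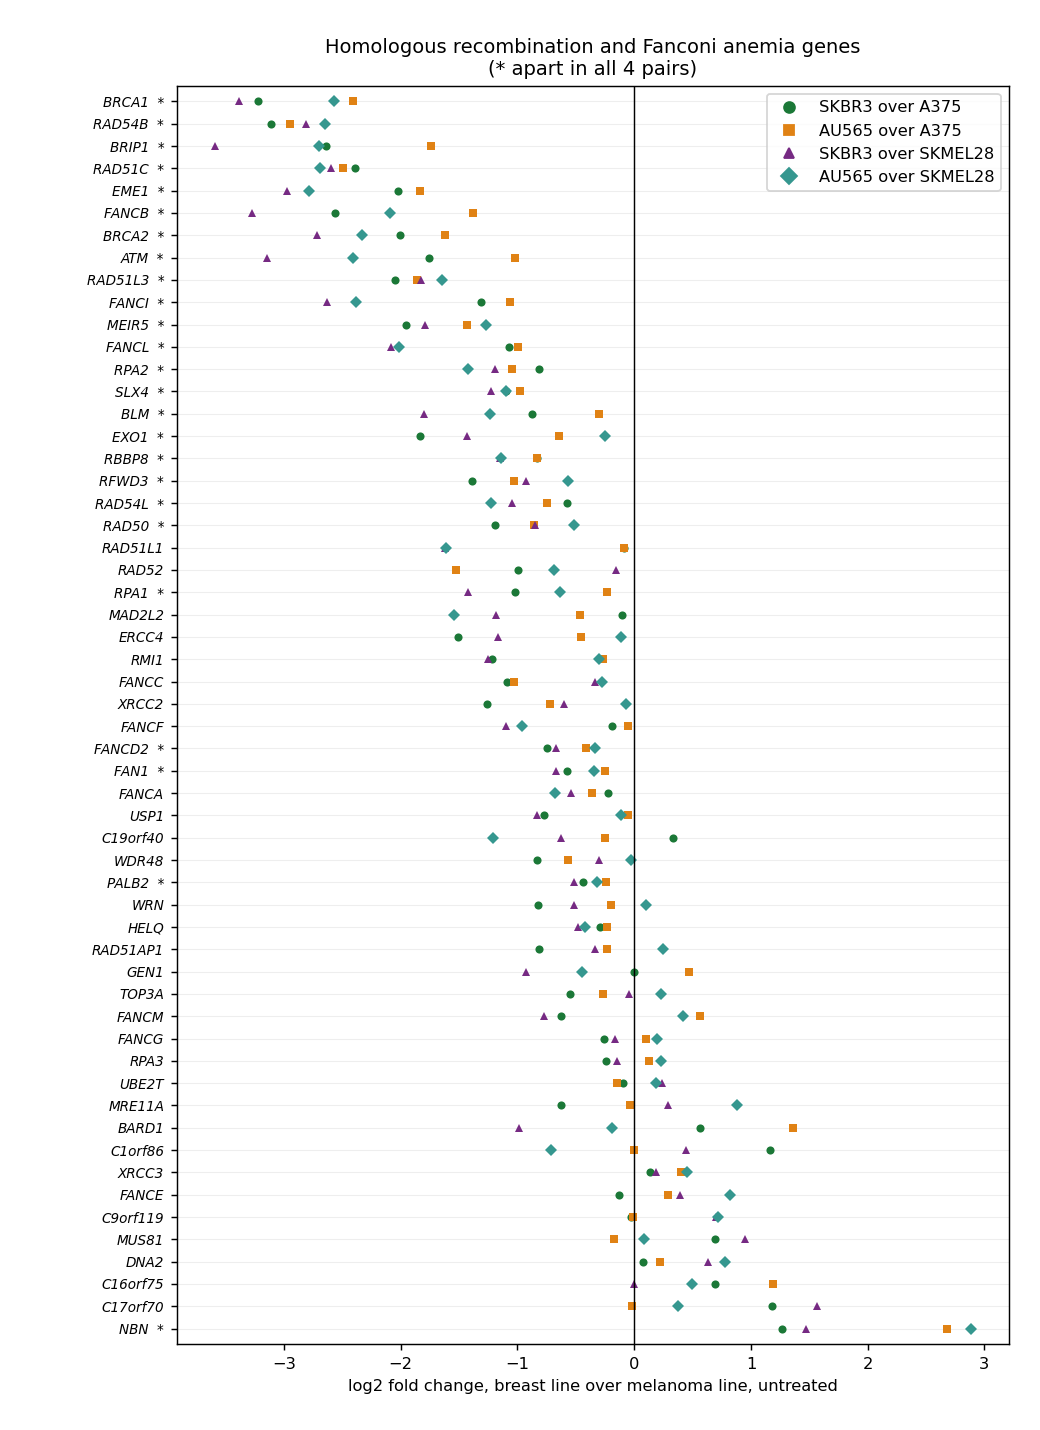
Log2 fold change, breast line over melanoma line, in each of the 4 untreated pairs for 56 of the 58 tested genes of homologous recombination and the Fanconi anemia pathway, all with at least 1 CPM in each line, sorted by the mean difference; a star marks genes apart in all 4 pairs. The starred genes lie to the left of 0 except NBN at the bottom, and for BRCA1, RAD54B, BRIP1 and RAD51C all 4 pairs lie left of -1.7.

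The Fanconi anemia pathway, which repairs crosslinks between strands, showed the same side. Of 23 genes tested, 9 were apart and lower (39.1%, beside 20.8% of all genes) and none apart and higher (20.3% of all genes were), with a median log2 difference of -0.46. With at least a 2-fold difference in each pair 3 of the 23 were lower, near the 13.3% of all genes. The helicase BRIP1 had 3.12 and 4.83 CPM in SKBR3 and 8.07 and 6.99 CPM in AU565, against 26.0 and 24.9 CPM in A375 and 50.2 and 48.7 CPM in SKMEL28 (-2.67 ± 0.13). FANCI, which is ubiquitinated together with FANCD2, had 66.1 to 88.4 CPM against 175 to 452 CPM (-1.85 ± 0.06). FANCB had 3.08 to 7.12 CPM against 16.9 to 30.3 CPM (-2.33 ± 0.14) and FANCL, the ubiquitin ligase, 13.0 to 16.4 CPM against 27.3 to 62.5 CPM (-1.54 ± 0.10). FANCD2 differed less, at 47.5 to 61.0 CPM against 72.4 to 82.6 CPM (-0.54 ± 0.07). Without 1 library at a time 7 to 10 members were lower. With the line as the unit BRIP1, FANCI, FANCB and FANCL were not called (adjusted p from 0.0529 to 0.116, edgeR).

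Of 25 DNA polymerase genes tested, 10 were apart and lower (40%, beside 20.8% of all genes) and 2 higher (8%, beside 20.3%), with a median log2 difference of -0.81. With at least a 2-fold difference in each pair only 1 was lower and 1 higher, beside 13.3 and 11.9% of all genes. POLD2, a subunit of the lagging-strand polymerase, had 360 to 408 CPM in the breast libraries against 94.3 to 110 CPM in the melanoma libraries (1.90 ± 0.06). The lesion-bypass polymerases POLK and POLH were lower in the breast lines, POLK at 12.9 to 17 CPM against 39.9 to 47.8 CPM (-1.5 ± 0.08) and POLH at 13.2 to 16.3 CPM against 24.6 to 52.7 CPM (-1.30 ± 0.09). POLA1 of the primase complex was lower too, at 26.6 to 48.1 CPM against 76.3 to 92.4 CPM (-1.19 ± 0.07). The other polymerase that was higher was POLM. It was no longer apart when library 1 of A375, of SKBR3 or of AU565 was left out alone, or with library totals. Of 37 mismatch and excision repair genes, 7 were apart and higher and 7 apart and lower, 18.9% each way and near the 20.3 and 20.8% of all genes, with a median of -0.04. The counts were 7 and 5 without both libraries that stood apart, and 5 and 9 with library totals. MLH3, a mismatch repair subunit used in meiosis, had 27.5, 26.7, 38.7 and 35.9 CPM in the breast libraries against 0.358 to 5.08 CPM (4.03 ± 0.17). The glycosylase NTHL1 had 32.5 to 39.8 CPM against 7.76 to 16.5 CPM (1.64 ± 0.11). The endonuclease APEX1 had 203 to 246 CPM against 85 to 121 CPM (1.13 ± 0.05). The glycosylase NEIL2 went the other way, at 3.37 to 3.93 CPM against 6.72 to 17.2 CPM (-1.62 ± 0.16).

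Of 29 proliferation genes tested, 5 were apart and higher (17.2%, beside 20.3% of all genes) and 8 lower (27.6%, beside 20.8%), with a median log2 difference of -0.30. With at least a 2-fold difference in each pair 2 were higher and 1 lower, beside 11.9 and 13.3% of all genes. The part of cycling in the repair differences was not tested. CDC6, which licenses replication origins, had 328 and 390.5 CPM in SKBR3 and 906 and 972 CPM in AU565, against 73.7 to 115 CPM in the melanoma libraries (2.64 ± 0.06). Thymidine kinase TK1 had 181 to 377 CPM against 58.4 to 65.2 CPM (2.09 ± 0.06). The kinase CDK2 had 27.2 to 48.2 CPM against 89.7 and 95.4 CPM in A375 and 324 and 326 CPM in SKMEL28 (-2.15 ± 0.07). The mitotic kinase AURKB had 17.6 to 26.6 CPM against 56.3 to 58.4 CPM (-1.48 ± 0.09). Of 30 regulators of G1 and targets of p53, 11 were apart and lower (36.7%, beside 20.8% of all genes) and 1 higher (3.33%, beside 20.3%), with a median of -0.73. CDK6, a kinase that opens S phase, had 11.8 to 24.0 CPM in the breast libraries against 236 and 237 CPM in A375 and 129 and 136 CPM in SKMEL28 (-3.48 ± 0.08). The p53 target PHLDA3 had 0.212 to 2.64 CPM against 51.5 to 79.7 CPM, TP53INP1 1.38 to 2.60 CPM against 5.84 to 22.4 CPM, and the death receptor FAS 0 to 1.17 CPM against 5.47 to 17.3 CPM.

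Lipid synthesis genes differed in both directions. Of 29 tested, 11 were apart and higher (37.9%, beside 20.3% of all genes) and 8 lower (27.6%, beside 20.8%), with a median log2 difference of 0.02. FASN, the fatty acid synthase, had 4926, 5351, 4218 and 3547 CPM in the breast libraries, against 751 and 798 CPM in A375 and 336 and 322 CPM in SKMEL28 (3.15 ± 0.07). Its regulator SREBF1 had 679 to 1094 CPM against 33.6 to 245 CPM (3.29 ± 0.06). THRSP, a lipogenic protein, had 3.82 to 9 CPM in the breast libraries and no count in the melanoma libraries (at least 29.2-fold higher). Among the lower genes were the desaturases FADS1, at 1.17 to 5.48 CPM against 112 to 422 CPM (-6.54 ± 0.11), and SCD5, without a count against 5.40 to 30.9 CPM (at least 62.1-fold lower). The arachidonate ligase ACSL4 was lower too, at 0.106 to 1.03 CPM against 114 to 129 CPM (-8.31 ± 0.15).

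Glycolysis and lactate transport genes were apart and higher in 9 and lower in 9 of 29, 31.0% each way beside 20.3 and 20.8% of all genes. The lactate carriers went opposite ways: SLC16A1 (MCT1) had 0.212 to 2.49 CPM in the breast libraries against 172 to 312 CPM in the melanoma libraries (-8.16 ± 0.12), while SLC16A3 (MCT4) had 201 to 406 CPM against 3.32 to 12 CPM (5.36 ± 0.09). SLC16A7 (MCT2) had 3 counts in the breast libraries against 432. The membrane carbonic anhydrase CA12 had 256 and 282 CPM in SKBR3 and 94.7 and 92.8 CPM in AU565 against 0 to 0.527 CPM (9.51 ± 0.16). The neuronal enolase ENO2 had 0.822 to 1.46 CPM against 53.7 to 154 CPM (-6.47 ± 0.14).

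Antigen presentation and interferon genes were lower in 12 of 30 (40%, beside 20.8% of all genes) and higher in 5 (16.7%, beside 20.3%), with a median log2 difference of -0.71. The class II invariant chain CD74 had 0.293 to 0.548 CPM in the breast libraries, against 590 and 664 CPM in A375 and 50.6 and 51.9 CPM in SKMEL28 (-8.85 ± 0.16). Its regulator CIITA had 0 to 0.319 CPM against 9.37 to 32.0 CPM (-6.74 ± 0.29). The interferon-induced genes IFI44 and IFIT3 had at most 0.439 CPM in the breast libraries against 8.96 to 22.7 CPM. The class I peptide transporter TAP1 was higher in the breast lines, with 40.3 to 60.6 CPM against 16.6 to 28.3 CPM (1.21 ± 0.08). B2M, the class I light chain, was not apart, with 347 to 408 CPM against 289 to 465 CPM (-0.02 ± 0.06, adjusted p = 0.808, edgeR). Of 16 cancer-testis antigens, 4 were apart and lower (25%, beside 20.8% of all genes) and 2 higher (12.5%, beside 20.3%). PRAME had 0.367 to 5.63 CPM in the breast libraries against 188 to 509 CPM (-7.03 ± 0.11). MAGEA4 had 0 to 0.367 CPM, against 711 and 693 CPM in A375 and 24.6 and 30.0 CPM in SKMEL28, while CTAG2 had 112 to 141 CPM against 0 to 0.527 CPM. The MAGEA and CTAG genes have near-identical copies, so how their reads were shared out is uncertain.

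The liposarcoma line 94T778, of neither lineage, lay nearer the melanoma lines. Of the 1981 genes at least 2-fold higher in each pair, its untreated level on the log2 scale was nearer the melanoma mean in 1678 (84.7%), and of the 2217 lower ones in 1619 (73%). These shares say only which of the 2 means 94T778 lay nearer, and the breast lines were not tested against it.

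The lineage difference was largely kept in the libraries with torkinib, which are separate libraries of the same lines, at 0.8 µM in SKBR3 and 4 µM in the other 3 lines. With torkinib 6424 genes (38.5%) were apart in all 4 pairs. Of the 6872 genes apart without the drug, 4687 (68.2%) were apart in the same direction with it, 33 (0.48%) in the opposite direction and 2152 (31.3%) were not apart. On the mean of lines 12724 of all genes (76.2%) were called with torkinib. Of the 6872, 6591 (95.9%) kept their sign and 6267 (91.2%) kept their sign and the call. The size of the difference changed for many. The lineage by torkinib interaction was called for 7142 genes (42.8%), with the breast minus melanoma difference higher with torkinib in 3435 and lower in 3707. Among the 6872 it was called for 3269, of which the difference was smaller with torkinib in 2453 and larger in 816. Because the 6872 were selected for their difference in the same untreated libraries, a smaller difference with torkinib cannot be told apart from that selection. EGFR showed the widest gain of those named, at 426 CPM in SKBR3 and 745 CPM in AU565 with torkinib, against 5.96 CPM in A375 and 1.95 CPM in SKMEL28 (line means). Because the dose in SKBR3 differed from that in the melanoma lines, lineage and dose are partly mixed in these values.

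**Figure D5:**
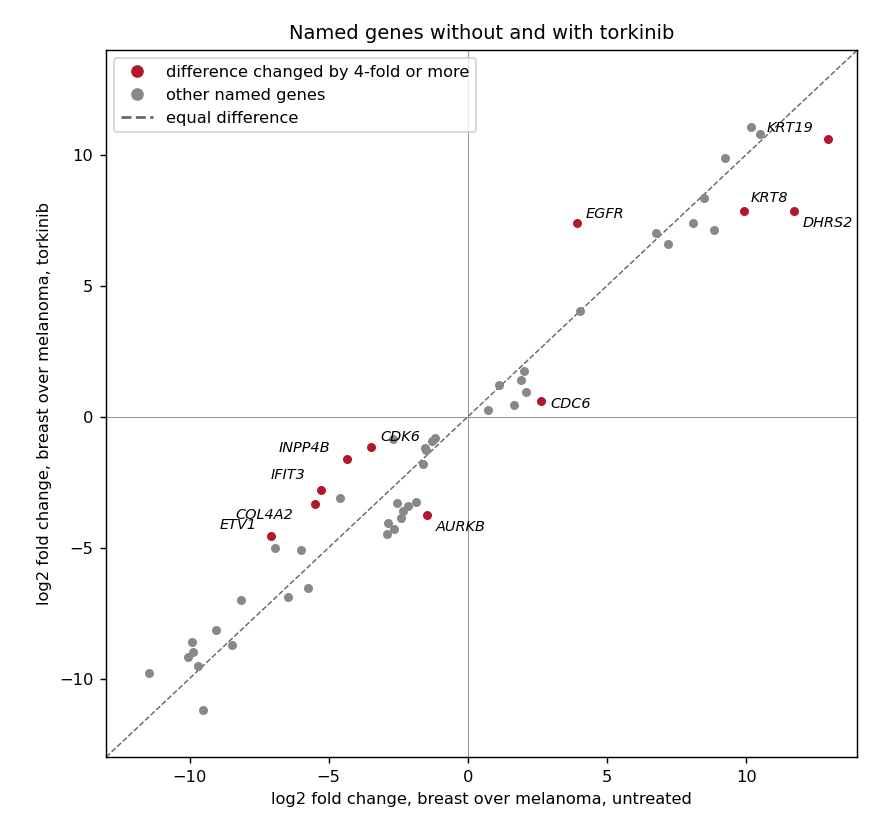
Log2 fold change, breast over melanoma lines, without torkinib (x axis) and with it (y axis), for the 54 named genes with more than 3 counts in each of the 8 groups; the dashed line marks equal differences. Points follow the line and none changes sign, and the 11 red genes are those whose difference changed at least 4-fold with an adjusted p under 0.05, such as EGFR above the line and DHRS2 below it.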

How the data were processed

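RNA extracted with Qiagen's RNeasy midi kit, per the labels' protocols, was sequenced from 8 untreated libraries, 2 per line. The authors deposited 1 file of counts for each library: whole numbers of reads for every gene symbol, not normalized. The submitters' processing notes name HISAT2 2.04, HTSeq 0.6.1, limma 3.34.9 and build hg19 without their roles. Which annotation and strand setting the counting used is not given in the sources, so reads of overlapping or antisense genes cannot be told apart. Genes with near-identical copies are uncertain, since reads aligned at more than 1 place (9.49 to 12.6% of reads) stood outside the genes. Summary lines of the counter, being no genes, were left out of totals and tests. Of all reads 51.3 to 61.8% were counted in genes, 16.7 to 28.2% were not aligned, 5.43 to 7.83% fell in no feature, 3.39 to 4.43% had low alignment quality and 1.31 to 1.5% were ambiguous. Of 50775 features 27609 matched a table of gene names, 18755 of them protein coding.

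Counts were fitted in R 4.3.3 with edgeR 4.0.16 (TMM factors, filterByExpr, quasi-likelihood test, Benjamini-Hochberg adjustment at 0.05) as 10 group means over all 20 libraries, with 1 estimate of spread for all groups (biological coefficient of variation 0.0547, residual degrees of freedom 10, prior degrees of freedom 25.6). Levels are CPM of TMM-scaled library sizes, printed per library or as a range over libraries, and differences are log2, breast minus melanoma, with their standard error. A line without a count was set to 3 counts over its 2 libraries, which makes the fold a lower bound. With 1 to 3 counts in the lower lineage, the ratio of summed counts has an exact 95% binomial interval. Both cover counting error only. The fit was tested on simulated counts.

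Members and 27 gene lists (the symbols ITGB3, HOXC4 and BAGE had no match) were chosen with earlier results of these data known. Named by rule were the 10 protein-coding genes apart each way with the largest smallest-of-4 difference (more than 3 counts in each line, 10 CPM or more in each line of the higher lineage), the first 8 each way by level among those with at most 3 counts in 1 lineage, the 4 members apart of each list with the largest smallest-of-4 difference, and the cell type markers. Other genes named were chosen after their values were seen. The counts cover every member of a list, and a few members are not reported here. Alternatives tried were DESeq2 1.42.0, limma-voom (limma 3.58.1), other scalings and filters, a replicate block, the untreated libraries alone, the line as the unit, a 2-fold minimum, and leaving out libraries.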

Additional observations from a re-analysis of the deposited data

Results flagged for a closer look

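For 11 genes the breast minus melanoma difference with torkinib differed by at least 4-fold from that without it (edgeR's test of the lineage by torkinib interaction, adjusted over all genes), out of 54 named genes with more than 3 counts in each of the 8 groups, of which 36 had an interaction called. Over all genes the interaction was called for 42.8%. The 54 genes were named for their difference without torkinib, so a smaller difference with it cannot be told apart from that selection. The drug dose was 0.8 µM in SKBR3 and 4 µM in the other 3 lines, and line means are given with torkinib first.

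The difference moved towards the breast lines for 6 genes. EGFR moved by 3.47 on the log2 scale (SE 0.37, adjusted p = 8.09e-10), with 426 CPM in SKBR3 and 745 CPM in AU565 with torkinib against 148 and 266 CPM without it, and 5.96 CPM in A375 and 1.95 CPM in SKMEL28 with torkinib against 51.4 and 3.12 CPM without it. The A375 libraries without torkinib differed, at 72.5 and 30.3 CPM, and A375 library 1 is one of the libraries that stood apart. INPP4B moved by 2.71 (adjusted p = 7.15e-21), ETV1 by 2.51 (1.46e-07), IFIT3 by 2.48 (3.60e-05), CDK6 by 2.32 (6.71e-19) and COL4A2 by 2.15 (1.62e-11). For these 5 genes, lower in the breast lines without torkinib, the difference was smaller with it. IFIT3 and ETV1 had few counts in the breast lines. In SKBR3 and AU565 IFIT3 had 1.07 and 1.95 CPM with torkinib against 0.312 and 0.312 CPM, and ETV1 4.19 and 2.29 CPM against 0.604 and 0.524 CPM.

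It moved towards the melanoma lines for 5 genes. DHRS2 moved by -3.86 (SE 0.38, adjusted p = 9.19e-11), with 399 CPM in SKBR3 and 301 CPM in AU565 with torkinib against 4213 and 3184 CPM without it, while A375 and SKMEL28 had 1.06 to 1.94 CPM with and without it. KRT19 moved by -2.35 (0.0053), AURKB by -2.26 (1.71e-07), KRT8 by -2.07 (7.19e-09) and CDC6 by -2.03 (8.42e-18). KRT19 had 1694 CPM in SKBR3 and 1134.5 CPM in AU565 with torkinib, against 4497 and 2456.5 CPM without it. In A375 and SKMEL28 it had 0.486 and 1.51 CPM against 0.442 and 0.298 CPM, so its shift rests partly on very few counts. AURKB had 0.655 CPM in SKBR3 and 0.775 CPM in AU565 with torkinib, also few counts. AURKB, lower in the breast lines without torkinib, was lower by more with it, and the other 4 genes remained higher in the breast lines by less.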

How the results depend on the processing

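Apart in all 4 pairs were 3396 higher and 3480 lower genes with DESeq2 size factors, 2968 and 3911 with library totals, 3429 and 3564 with limma-voom, 3181 and 3254 with DESeq2's Wald test, 3187 and 3153 without A375 library 1 and SKBR3 library 2, and 3203 to 3509 and 3203 to 3407 without 1 library at a time. The non-overlap of libraries gave 3926 and 4181. No paired analysis was called for by the labels, and replicate numbers shared no deviation (r from -0.0621 to 0.0678 over 11831 genes); the fit with replicate number as a block gave 3368 and 3459 genes, 6302 higher and 6912 lower on the mean.

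With a 2-fold minimum added, the mean gave 3706 higher and 4315 lower genes, all 4 pairs 1981 and 2217, AU565 minus A375 8144, AU565 minus SKMEL28 8366, SKBR3 minus AU565 2968, SKMEL28 minus A375 6413, torkinib 3873, both treatments 2810 and the interaction 2449. With the line as the unit 976 genes were higher and 1068 lower. That fit had fewer degrees of freedom and a wider spread, with a biological coefficient of variation of 0.569 against 0.0547.

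Medians of lists that moved by more than their spread over the 4 pairs were those of lists with many zeros or near 0. HOX genes had -7.61 with the 10 CPM filter, -4.97 with limma-voom, -6.33 with DESeq2, -8.08 with the line as the unit and -7.92 over members at 10 CPM or more. Neural crest genes had -4.34 without a filter and -4.44 with limma-voom, and secretory genes 6.37 without a filter. Blood and endothelial genes, 5 in number, had 5.94 with the 10 CPM filter, -2.01 with the untreated libraries alone, 3.35 with the line as the unit and 9.21 at 10 CPM or more. MTOR genes had -0.16 and mismatch and excision repair genes -0.18 with library totals. With the line as the unit mesenchymal genes had -5.65, other receptor kinases -1.08 and MTOR genes -0.37. The causes were not tested. The other 523 list medians and 222 counts kept within their limits, which for a count was a fixed ratio to the main count. These limits were wide, so keeping within them says little. The spread of the median over the 4 pairs was 4.26 for melanocyte genes and 2.96 for keratins. The antigen presentation median of -0.33 with the untreated libraries alone, against -0.71, was within its limit. Of named genes, 2410 values kept direction and call, 18 lost the call with the line as the unit, and 0 reversed. The 18 were BRIP1, FANCB, FANCI, FANCL, POLA1, POLH, POLK, APEX1, NEIL2, NTHL1, AURKB, CDK2, TK1, FAS, TP53INP1, EGFR, SESN3 and OS9.

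Leaving out both libraries that stood apart ended the call in all 4 pairs for 18 of 376 list members, FN1, BTC, PRRX1, ITGA10, HOXA7, HOXD1, TSC1, RHEB, EIF4E, BLM, POLI, ERCC1, MPG, ERAP2, IRF7, MAGEA6, CSAG1 and LYZ. Library totals ended it for 14, and no sign turned.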

Other observations

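Genes silent in the breast lines and present in both melanoma lines lay side by side in 3 stretches, a pattern picked after its values were seen. Taking neighbouring protein-coding genes with at most 6 counts over the 4 breast libraries and at least 3 CPM in each melanoma line, runs of 4 or more were HOXB5 to HOXB9 on chromosome 17 (5 genes), ZNF430 to ZNF493 on chromosome 19 (6 genes) and ZNF724 to ZNF681 on chromosome 19 (4 genes). No run of this kind was higher in the breast lines. ZNF91, a zinc finger repressor known to act on retroelements, had 2 counts in the breast libraries against 755 in the melanoma libraries, and ZNF430 had 2 against 426. Of 216 zinc finger genes (ZNF symbols) of chromosome 19 tested, 19 (8.8%) were apart and higher in the breast lines and 63 (29.2%) lower. Of all genes 20.3 and 20.8% were. The median log2 difference of these ZNF genes was -0.40, and -0.09 with torkinib, against -0.10 and -0.09 over all genes. Of 227 elsewhere, 39 (17.2%) were higher and 51 (22.5%) lower, with a median of 0.03, and 0.22 with torkinib. Of 761 other protein-coding genes of chromosome 19, 158 (20.8%) were higher and 104 (13.7%) lower. Zinc finger genes of this family have close copies, and reads aligned at more than 1 place were not counted.

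The 5 tested APOBEC3 genes, cytidine deaminases that act against viruses and retroelements, were apart and lower in the breast lines (100%, beside 20.8% of all genes). They lie side by side on chromosome 22 and were picked after their values were seen. APOBEC3B averaged 0.0732 CPM in SKBR3 and had no count in AU565, against 15.1 CPM in A375 and 45.5 CPM in SKMEL28. Their near-identical copies make the split among them uncertain.

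Expressed genes near MAP4K4, which was nearly absent from the breast lines, were not apart and lower. On one side CNOT11 averaged 94.0 CPM in SKBR3 and 105 CPM in AU565, against 44.2 CPM in A375 and 77.5 CPM in SKMEL28, and on the other IL1R1 averaged 25.4 and 60.5 CPM, against 1.60 and 1.79 CPM. Chromosome 14 had the most one-sided share of protein-coding genes, 40.7% apart and higher and 8.81% apart and lower, beside 21.7 and 21.8% over all chromosomes.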
